A study of Bos taurus with 86 samples.

Results

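The genes described here encode the proteasome, the cell's main protein-degrading machine, and the ubiquitin-conjugating (E2) enzymes, which hand ubiquitin on towards the proteins to be degraded. The members are all rows of a bovine cDNA array whose only gene symbol in the platform annotation starts with PSMA to PSMG or with UBE2. They comprise 48 genes on 116 rows (spots of cDNA clones, averaged per gene), and 42 of the 48 were measured in enough embryos to be tested, among 6278 features tested in all. The 42 are 13 genes of the 20S core, 8 of the 19S regulator, 4 activator, inhibitor and assembly genes, 16 E2 genes, and PSME3IP1, which carries a proteasome symbol but encodes a binding partner of an activator in human cells. Single whole bovine embryos were profiled in 3 groups: 15 IVF embryos, read as in vitro fertilization, 14 IVD embryos, an abbreviation the labels leave unexplained and that serves only as a name here, and 14 AI embryos, read as artificial insemination. No genetic change or drug is named for any group, the sources used here give neither stage nor age, and 4 IVD embryos share the number 12, with no word on whether they have a common origin. Embryo RNA was linearly amplified in 3 rounds, a common reference RNA of unstated make-up in 2, and each embryo was set against that reference on 2 arrays with exchanged dyes. A value is the mean log2 ratio of an embryo's 2 arrays, so it is a level relative to the reference and cannot be ranked between genes as an amount of RNA.

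The 20S core is a barrel of stacked rings. Its outer rings are built from alpha subunits, which gate the entrance, and its inner rings from beta subunits, of which PSMB5, PSMB6 and PSMB7 cut the protein chain. Cells that respond to interferon put PSMB8, PSMB9 and PSMB10 in their place and so make the immunoproteasome. The 19S regulator caps the core, recognises ubiquitin chains, unfolds the substrate with a ring of ATPases (PSMC genes) and feeds it in. Ubiquitin reaches substrates through an E1 activating enzyme, an E2 enzyme and an E3 ligase, and the early embryo is known for using this route to remove maternal proteins.

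The labels do not state which dye is the numerator of the deposited ratios. The embryo over the reference was taken as the likely direction, because 17 of 19 measured trophectoderm marker genes then lay above 0, with a median of 2.04 over their mean log2 ratios. Both measured inner cell mass markers also lay above 0, while 0 of 2 blood and immune cell markers (CD14, ITGB2), 1 of 4 cumulus and granulosa markers and 0 of 1 oviduct and endometrium marker did, and no maternal oocyte marker on the list was measured. If the direction is the other one, all signs given here turn round. Arrays of 1 dye orientation correlated at r = 0.55 or higher over all pairs. IVD arrays stood apart technically: per embryo (mean of its arrays), 3076.5 to 5099.5 rows lacked a value in IVF embryos, 1001.5 to 1871.5 in IVD embryos and 3613 to 5713 in AI embryos, and the part of the ratio that did not turn with the dyes placed all 14 IVD embryos in 1 cluster with 2 IVF and 5 AI embryos. No slide or hybridisation batch is given, so for IVD the handling of the arrays cannot be told apart from the group. IVF embryos 1, 7 and 11 lay far from their group's mean profile (mean squared deviations of 0.412, 0.296 and 0.532), and results that they move are given without them. They are not the 3 farthest: IVF embryo 19 (0.306) lay farther out than embryo 7 and stayed in every fit. AI embryo H3, at 0.335 from its own group's mean profile, also stayed in. In whole embryos, fewer cells of a type and less RNA per cell cannot be told apart.

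In IVF against AI embryos, most genes of the constitutive 20S core were lower in IVF, led by PSMB5, PSMA6, PSMB6 and PSMA4, and none of the 20S genes was higher. The ATPase gene PSMC2 was lower in IVF without overlap between the groups. The activator gene PSME4, the assembly chaperone gene PSMG1 and the 19S scaffold gene PSMD1 went the other way. Of the 42 members 7 were higher and 14 lower at an adjusted p below 0.05 (limma, Benjamini-Hochberg over all features), beside 19.9% higher, 17.7% lower and 37.7% in either direction over all features. The median difference was -0.01 over the members and 0.04 over all features. With the values as given, without centring, 4 members were higher and 8 lower, beside 21.1% of all features called. PSMC2 was the 1 member of 42 whose groups did not overlap, where 0.542% of all features had none.

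In IVD against AI embryos, PSMA4 stood out among the 20S genes by being higher in IVD, and all 3 immune beta genes were lower. PSME4, PSMG1 and PSMD1 were higher in IVD too, and so were 4 E2 genes, led by UBE2B and UBE2K. Of the 42 members 9 were higher and 7 lower, beside 25.5% higher, 21.0% lower and 46.5% in either direction over all features, and no member had groups without overlap, against 2.84% of features. The split depended on the centring of the arrays: 56.2% of the called members were higher in IVD with centred arrays, and 93.8% (15 higher, 1 lower) with the values as given. In that setting 44.9% of all features were called, and the median over all features was 0.32 in place of 0.06. Differences between IVD and the other groups are therefore relative to the middle of each array.

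In IVF against IVD embryos, PSMA4 and PSMA6 were lower in every IVF embryo with a value than in any IVD embryo with one. The 3 immune beta genes were higher in IVF. PSMC2 and the E2 genes UBE2V2 and UBE2K were lower in IVF. Of the 42 members 6 were higher and 11 lower, beside 22.3% higher, 25.2% lower and 47.6% in either direction over all features. The 2 members whose groups did not overlap compare with 3.28% of all features. With the values as given the split was 2 higher and 14 lower (12.5% higher, against 35.3% with centred arrays), beside 42.4% of all features called. The median over all features was then -0.27 in place of -0.01. The split was 2 higher and 13 lower on the arrays with the embryo in Cy3, beside 51.2% of all features. Among rows measured in every embryo it was 2 higher and 10 lower, beside 53.2%. With the clusters of embryos by dye bias as a block, 2 members were called higher and 4 lower, beside 29.2% of all features. The 3 comparisons share their groups, so that they are not independent of each other. In the plot of differences for IVF against AI, 7 of 13 20S genes and 5 of 8 19S genes are called points. So are 3 of 4 activator, inhibitor and assembly genes and 5 of 16 E2 genes, beside 37.7% of all features. The 20S share is therefore not the largest of these. In IVF against IVD, the immune genes are the only 20S points to the right of 0 among the called ones.

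**Figure D1:**
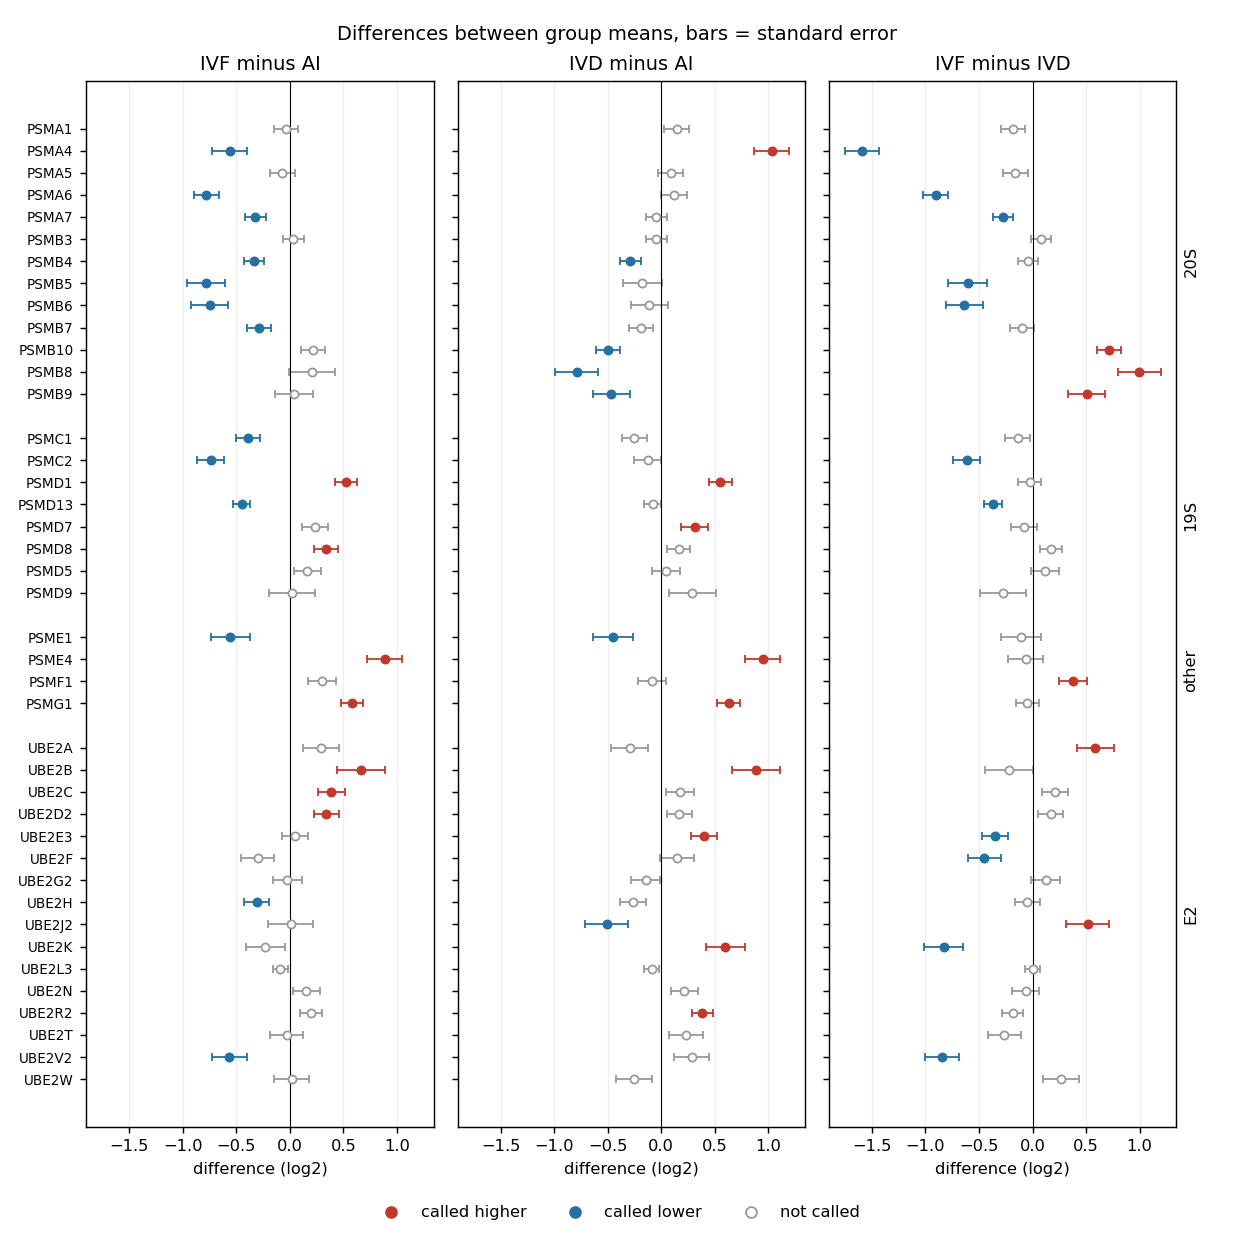
Difference between group means in log2 units (x axis, bars are standard errors) for 41 measured members in rows, in IVF minus AI, IVD minus AI and IVF minus IVD. Filled points passed an adjusted p of 0.05, and PSME3IP1 is not drawn; PSMA4 reaches -1.59 in IVF minus IVD and 1.03 in IVD minus AI.

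The constitutive 20S genes (5 alpha and 5 beta ring genes) were set apart from the 3 immune genes after the values were seen. Of these 10 genes, 7 were lower and 0 higher in IVF than in AI, with a median difference of -0.33. Over all features 17.7% were lower and 19.9% higher, with a median of 0.04. The count of lower constitutive genes was 4 with the values as given and 6 without IVF embryos 1, 7 and 11. In these settings 21.1% and 36.7% of all features were called in either direction. Between IVD and AI 1 was higher and 1 lower (median -0.05), beside 25.5% higher and 21.0% lower over all features (median 0.06). Between IVF and IVD 0 were higher and 5 lower (median -0.23), beside 22.3% higher and 25.2% lower over all features (median -0.01). PSMA4, an alpha ring subunit, had log2 ratios from -0.54 to 0.67 (median -0.25) in 14 IVF embryos, from 0.99 to 2.32 (median 1.44) in 13 IVD embryos and from -1.02 to 1.12 (median 0.47) in 13 AI embryos. No IVF embryo reached the lowest IVD embryo, and 9 of 13 IVD embryos lay above the highest AI embryo. IVF and AI overlapped: the lowest AI embryo lay below all IVF embryos, and the 2 highest IVF embryos, at 0.29 and 0.67, lay among the AI embryos. PSMA4 was the 1 member called in all 3 comparisons: IVF was lower than IVD by a log2 difference of -1.59 ± 0.16 (SE, adjusted p = 1.36e-10), IVD was higher than AI by 1.03 ± 0.16 (adjusted p = 2.40e-06), and IVF was lower than AI by -0.56 ± 0.16 (adjusted p = 0.00564).

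**Figure D2:**
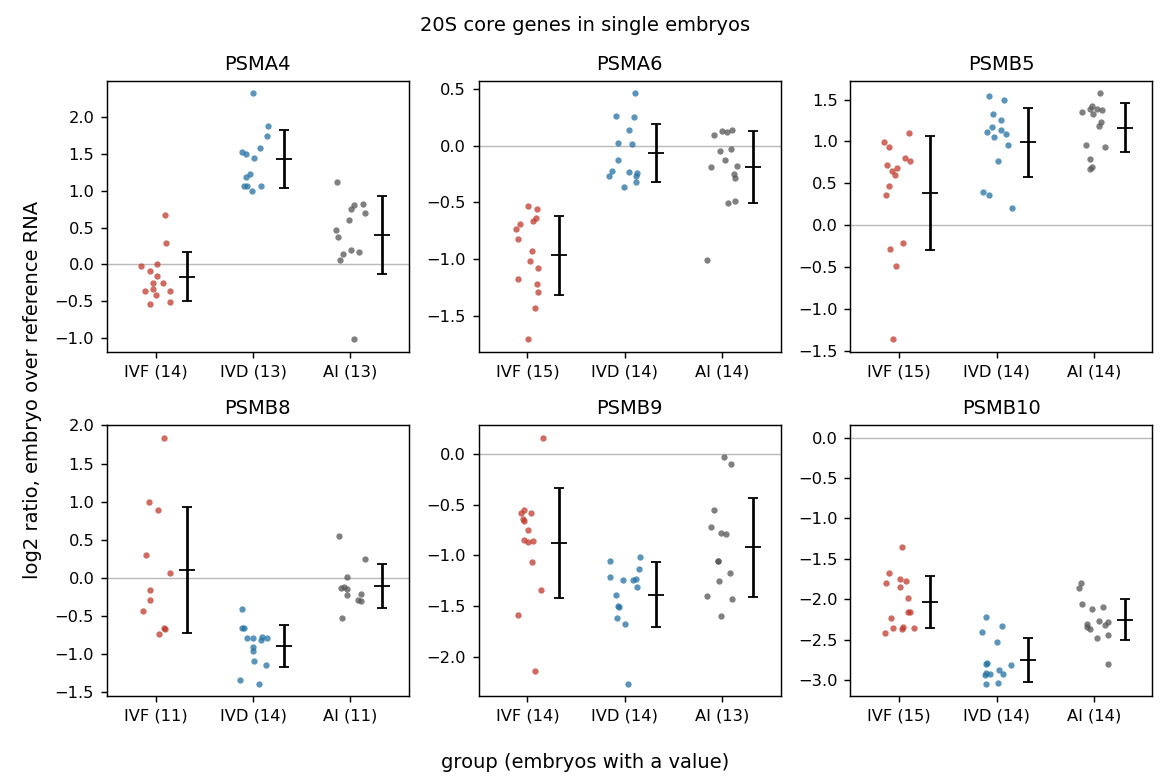
Log2 ratio of embryo over reference RNA (y axis) for 6 genes of the 20S core, each point 1 embryo of the IVF, IVD or AI group, with the group mean and SD as a bar beside the points. IVD embryos lie highest for PSMA4, IVF embryos lie lowest for PSMA6, and IVD embryos lie low for the immune genes PSMB8, PSMB9 and PSMB10.

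PSMA6, another alpha ring subunit, ranged from -1.71 to -0.53 (median -0.93) in IVF, from -0.36 to 0.46 (median -0.17) in IVD and from -1.01 to 0.14 (median -0.15) in AI. All 15 IVF embryos lay below all 14 IVD embryos, and only the lowest AI embryo lay within the IVF range, the next being at -0.50. The difference was -0.78 ± 0.12 for IVF minus AI (adjusted p = 1.78e-06) and -0.90 ± 0.12 for IVF minus IVD (adjusted p = 2.95e-08). IVD and AI differed by 0.12 ± 0.12 and passed no threshold (adjusted p = 0.417).

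PSMB5, the chymotrypsin-like catalytic subunit, ranged from -1.36 to 1.10 (median 0.64) in IVF, from 0.20 to 1.54 (median 1.10) in IVD and from 0.68 to 1.57 (median 1.28) in AI. The groups overlapped, but 8 of 15 IVF values were under the AI minimum. IVF was lower than AI by -0.78 ± 0.18 (adjusted p = 0.000698) and lower than IVD by -0.61 ± 0.18 (adjusted p = 0.00502). Without IVF embryos 1, 7 and 11 the difference was -0.51 from AI (adjusted p = 0.00413) and -0.33 from IVD (adjusted p = 0.0477), and with the dye-bias clusters as a block the call against IVD was lost (-0.22, adjusted p = 0.477). PSMB6, the caspase-like catalytic subunit, ranged from -2.42 to -0.22 (median -1.23) in IVF, from -1.26 to -0.09 (median -0.59) in IVD and from -1.42 to 0.04 (median -0.37) in AI. In both comparisons the groups overlapped, with 7 of 15 IVF values under the minimum of the other group. The difference was -0.75 ± 0.17 for IVF minus AI (adjusted p = 0.000706) and -0.64 ± 0.17 for IVF minus IVD (adjusted p = 0.00217). The second of these lost its call on the arrays with the embryo in Cy5 (-0.44, adjusted p = 0.0725) and with the dye-bias clusters as a block (-0.53, adjusted p = 0.104).

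The other constitutive core genes moved less. PSMB7, the trypsin-like catalytic subunit, averaged 0.30 ± 0.40 in 15 IVF embryos, 0.40 ± 0.18 in 14 IVD embryos and 0.59 ± 0.24 in 14 AI embryos (mean ± SD), and was lower in IVF than in AI by -0.29 ± 0.11 (adjusted p = 0.0376), a call lost in 7 of 12 other settings, among them the fit without IVF embryos 1, 7 and 11 (-0.25). The alpha ring gene PSMA7 averaged -0.17 ± 0.30 in IVF, 0.11 ± 0.20 in IVD and 0.16 ± 0.20 in AI, and was lower in IVF than in both (-0.27 against IVD and -0.32 against AI), calls lost in 4 and 2 of 12 other settings. Its 2 clones gave -0.49 and -0.08 for IVF minus IVD, so that its call against IVD rests on 1 clone. The structural beta ring gene PSMB4 averaged -0.29 ± 0.29 in IVF, -0.24 ± 0.16 in IVD and 0.05 ± 0.25 in AI, and was lower than AI in both IVF (-0.33) and IVD (-0.29). Each of these calls was lost in 1 of 12 other settings, the values as given. In that setting IVF minus AI was still -0.33, while IVD minus AI was -0.03. PSMA1, PSMA5 and PSMB3 passed the threshold in no comparison, with differences between -0.18 and 0.15. Where a gene had 2 clones of opposite sign, the differences were small: -0.17 and 0.08 for PSMA7 in IVD minus AI, and -0.15 and 0.02 for PSMB4 in IVF minus IVD.

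The immune beta genes had another order of groups. PSMB10, the immune counterpart of PSMB7, lay far below the reference in every embryo, from -2.43 to -1.36 (median -2.16) in IVF, from -3.05 to -2.22 (median -2.85) in IVD and from -2.80 to -1.80 (median -2.30) in AI. IVD was lowest, with 9 of 14 values under the AI minimum. IVD was lower than AI by -0.50 ± 0.11 (adjusted p = 0.000323), and IVF was higher than IVD by 0.71 ± 0.11 (adjusted p = 7.44e-07). PSMB9, the counterpart of PSMB6, ranged from -2.14 to 0.16 (median -0.80) in 14 IVF embryos, from -2.26 to -1.02 (median -1.28) in 14 IVD embryos and from -1.60 to -0.03 (median -1.05) in 13 AI embryos. The groups overlapped, and 10 of 14 IVF embryos lay above the highest IVD embryo. IVD was lower than AI by -0.47 ± 0.17 (adjusted p = 0.0253), and IVF was higher than IVD by 0.51 ± 0.17 (adjusted p = 0.0131). These calls of PSMB9 were lost in 5 and 4 of 11 other settings, and that of PSMB10 in IVD minus AI in 2 of 12.

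PSMB8, the counterpart of PSMB5, had values in 11 IVF, 14 IVD and 11 AI embryos, from -0.74 to 1.84 (median -0.16) in IVF, from -1.38 to -0.40 (median -0.80) in IVD and from -0.52 to 0.56 (median -0.15) in AI. The IVF embryos were widely spread, while 13 of 14 IVD values were under the AI minimum. IVD was lower than AI by -0.79 ± 0.20 (adjusted p = 0.00153), and IVF was higher than IVD by 1.00 ± 0.20 (adjusted p = 9.28e-05). Both calls came from 1 dye orientation: IVD minus AI was -1.64 on the arrays with the embryo in Cy5 and -0.02 on those with the embryo in Cy3, and IVF minus IVD was 1.82 and 0.06. Between IVF and AI none of the 3 immune genes passed the threshold, with differences of 0.04 to 0.21.

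Set beside the constitutive subunit it replaces within each embryo, each immune gene had its highest ratio in IVF. The log2 ratio of PSMB8 minus that of PSMB5 had a median of -0.80 in 11 IVF embryos, -1.84 in 14 IVD embryos and -1.41 in 11 AI embryos. For PSMB9 minus PSMB6 the medians were 0.37 in IVF, -0.71 in IVD and -0.71 in AI, with IVF from -0.67 to 1.78 and AI from -1.35 to 1.39. For PSMB10 minus PSMB7 they were -2.27 in IVF, -3.19 in IVD and -2.78 in AI, with IVF from -3.25 to -1.64 and AI from -3.51 to -2.38. All of these ranges overlapped between IVF and AI, and the values are relative to the reference RNA, not a ratio of subunits. The immune cell markers CD14 and ITGB2 both lay below the reference on average, with an embryo's mean over the pair between -1.33 and -0.07 in IVF, -0.80 and -0.39 in IVD and -1.81 and -0.36 in AI, and their part in the immune beta values was not tested.

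Of the 8 measured 19S genes, 2 were higher and 3 lower in IVF than in AI (median difference 0.09), 2 were higher and 0 lower in IVD than in AI (median 0.11), and 0 were higher and 2 lower in IVF than in IVD (median -0.11). The called share was 62.5% in IVF minus AI, beside 37.7% of all features, 25.0% in IVD minus AI, beside 46.5%, and 25.0% in IVF minus IVD, beside 47.6%. PSMC2, an ATPase of the ring that unfolds substrates, ranged from -0.43 to 1.04 (median 0.85) in IVF, from 0.72 to 1.83 (median 1.38) in IVD and from 1.05 to 1.81 (median 1.50) in AI. The highest IVF embryo lay just below the lowest AI embryo, so that the gap between these groups is narrow, and IVF embryos 1 and 19 lay far below the rest. IVF was lower than AI by -0.74 ± 0.12 (adjusted p = 1.02e-05) and lower than IVD by -0.62 ± 0.12 (adjusted p = 6.66e-05). Its 2 clones, each fitted on its own, gave -0.73 and -0.68 for IVF minus AI. They gave -0.20 and 0.03 for IVD minus AI, where the gene passed no threshold.

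PSMD13, a non-ATPase subunit of the 19S lid, ranged from -0.79 to -0.17 (median -0.45) in IVF, from -0.48 to 0.20 (median -0.08) in IVD and from -0.24 to 0.25 (median -0.06) in AI. Of 15 IVF values, 13 were under the AI minimum. The difference was -0.45 ± 0.08 for IVF minus AI (adjusted p = 3.22e-05) and -0.37 ± 0.08 for IVF minus IVD (adjusted p = 0.00023). PSMC1, another ATPase, averaged -0.60 ± 0.34 in IVF, -0.46 ± 0.26 in IVD and -0.20 ± 0.30 in AI (mean ± SD), and was lower in IVF than in AI by -0.39 ± 0.11 (adjusted p = 0.00649), a call lost in 2 of 12 other settings, as was that of PSMD13 in IVF minus IVD.

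PSMD1, a large scaffold subunit of the 19S base, ranged from 0.37 to 0.99 (median 0.72) in IVF, from 0.24 to 1.17 (median 0.80) in IVD and from -0.27 to 0.97 (median 0.13) in AI. IVF and IVD covered much the same range, and the upper AI embryos overlapped with both, the 2 highest being at 0.53 and 0.97. The difference was 0.52 ± 0.11 for IVF minus AI (adjusted p = 0.000144) and 0.55 ± 0.11 for IVD minus AI (adjusted p = 5.53e-05), while IVF and IVD differed by -0.03 ± 0.11. PSMD7, a lid subunit that pairs with the proteasome's own deubiquitinase, averaged -0.06 ± 0.36 in IVF, 0.02 ± 0.28 in IVD and -0.30 ± 0.34 in AI, and was higher in IVD than in AI by 0.31 ± 0.13 (adjusted p = 0.038), a call lost in 2 of 12 other settings. The lid subunit gene PSMD8 was higher in IVF than in AI by 0.34 ± 0.11 (adjusted p = 0.0139), a call that came from the arrays with the embryo in Cy5 (0.60) and turned to -0.13 with the embryo in Cy3. PSMD5 and PSMD9, chaperones of 19S assembly that are not part of the finished particle, were called in no comparison. The clones of PSMD5 gave -0.12 and 0.22 in IVD minus AI, and -0.09 and 0.32 in IVF minus IVD.

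**Figure D3:**
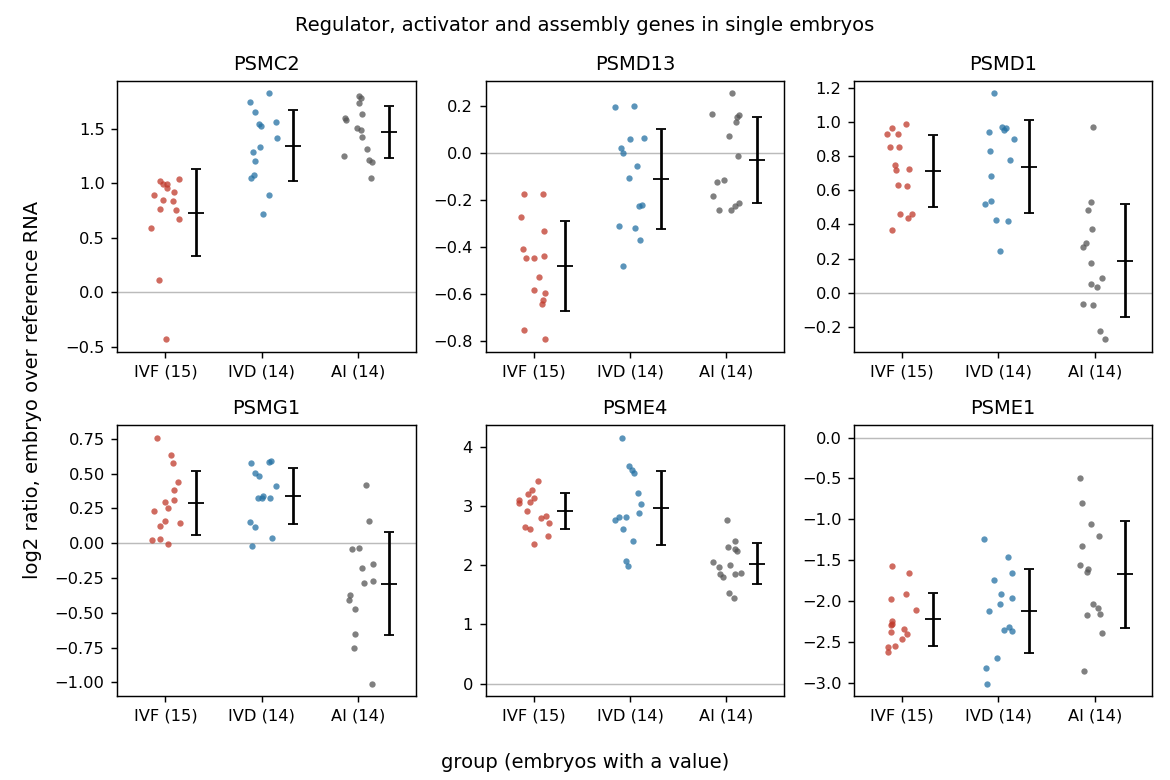
Log2 ratio of embryo over reference RNA (y axis) for 3 genes of the 19S regulator, the assembly gene PSMG1 and the activator genes PSME4 and PSME1, each point 1 embryo of the IVF, IVD or AI group, with the group mean and SD beside the points. IVF lies lowest for PSMC2 and PSMD13, and AI lies lowest for PSMD1, PSMG1 and PSME4.

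PSME4, the large ATP-independent activator known for its part in sperm development and in the turnover of acetylated histones, ranged from 2.37 to 3.43 (median 2.91) in IVF, from 1.99 to 4.16 (median 2.85) in IVD and from 1.44 to 2.76 (median 1.98) in AI. Every embryo lay above the reference, and 10 of 15 IVF and 10 of 14 IVD embryos lay above the highest AI embryo. IVF was higher than AI by 0.88 ± 0.16 (adjusted p = 4.22e-05), and IVD was higher than AI by 0.95 ± 0.17 (adjusted p = 1.01e-05). PSMG1, a chaperone that helps to build the alpha ring, ranged from -0.01 to 0.76 (median 0.26) in IVF, from -0.02 to 0.59 (median 0.33) in IVD and from -1.01 to 0.42 (median -0.28) in AI. Groups overlapped through the upper AI embryos. IVF was higher than AI by 0.58 ± 0.11 (adjusted p = 4.18e-05), and IVD by 0.63 ± 0.11 (adjusted p = 8.23e-06).

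PSME1, a subunit of the interferon-inducible activator ring, lay below the reference in every embryo, from -2.62 to -1.57 (median -2.29) in IVF, from -3.01 to -1.24 (median -2.08) in IVD and from -2.85 to -0.49 (median -1.63) in AI. The IVF embryos all lay within the range of AI, which was widest. IVF was lower than AI by -0.55 ± 0.19 (adjusted p = 0.0162) and IVD by -0.45 ± 0.19 (adjusted p = 0.0462), calls that were lost in 3 and 7 of 12 other settings. PSMF1, an inhibitor of the 20S core in cell-free assays, averaged 0.06 ± 0.30 in IVF, -0.32 ± 0.20 in IVD and -0.23 ± 0.49 in AI (mean ± SD), and was higher in IVF than in IVD by 0.38 ± 0.13 (adjusted p = 0.0143), a call lost in 3 of 11 other settings. PSME3IP1 ranged from -1.43 to 0.14 (median -0.56) in 13 IVF embryos, from -1.68 to 0.33 (median -0.29) in IVD and from -1.37 to 1.19 (median 0.60) in AI. It overlapped in all groups and was lower than AI in both IVF (-0.90 ± 0.23, adjusted p = 0.00214) and IVD (-0.69 ± 0.23, adjusted p = 0.0122). The call of PSME3IP1 in IVD minus AI was lost in 3 of 11 other settings, among them the arrays with the embryo in Cy3 (-0.38).

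Of the 16 measured E2 genes, 3 were higher and 2 lower in IVF than in AI (median difference 0.01), 4 were higher and 1 lower in IVD than in AI (median 0.17), and 2 were higher and 4 lower in IVF than in IVD (median -0.06). The called share of the E2 genes was 31.2% in IVF minus AI, 31.2% in IVD minus AI and 37.5% in IVF minus IVD, below the share of all features in each. UBE2B, which puts ubiquitin on histone H2B and acts in DNA damage tolerance, ranged from -2.18 to 0.70 (median -0.39) in IVF, from -1.81 to 0.39 (median -0.01) in IVD and from -1.59 to -0.27 (median -1.21) in AI. The lowest embryos of IVF and IVD lay below the lowest AI embryo, and 9 of 14 IVD embryos lay above the highest. IVD was higher than AI by 0.88 ± 0.23 (adjusted p = 0.00135), and IVF was higher than AI by 0.66 ± 0.22 (adjusted p = 0.0161), the second of these calls being lost in 3 of 12 other settings. Its 2 clones gave 0.23 and 0.90 for IVF minus AI, 0.87 and 1.00 for IVD minus AI, and -0.77 and 0.03 for IVF minus IVD.

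UBE2A, the close relative of UBE2B, had a different pattern: it ranged from -0.14 to 1.45 (median 0.39) in IVF, from -0.94 to 0.84 (median -0.35) in IVD and from -0.58 to 0.60 (median 0.21) in AI. All groups overlapped, and it was higher in IVF than in IVD by 0.59 ± 0.17 (adjusted p = 0.00468), a call lost in 3 of 12 other settings. UBE2V2, a catalytically inactive E2 variant that joins UBE2N to build non-degradative ubiquitin chains, ranged from -0.89 to 1.08 (median 0.33) in IVF, from 0.59 to 1.28 (median 1.12) in IVD and from 0.16 to 1.52 (median 0.69) in AI. In IVF 13 of 15 embryos lay below the lowest IVD embryo. IVF was lower than IVD by -0.85 ± 0.16 (adjusted p = 2.44e-05) and lower than AI by -0.56 ± 0.16 (adjusted p = 0.00501). Its partner UBE2N averaged 1.42 ± 0.33 in IVF, 1.48 ± 0.28 in IVD and 1.26 ± 0.38 in AI (mean ± SD) and was called in no comparison.

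**Figure D4:**
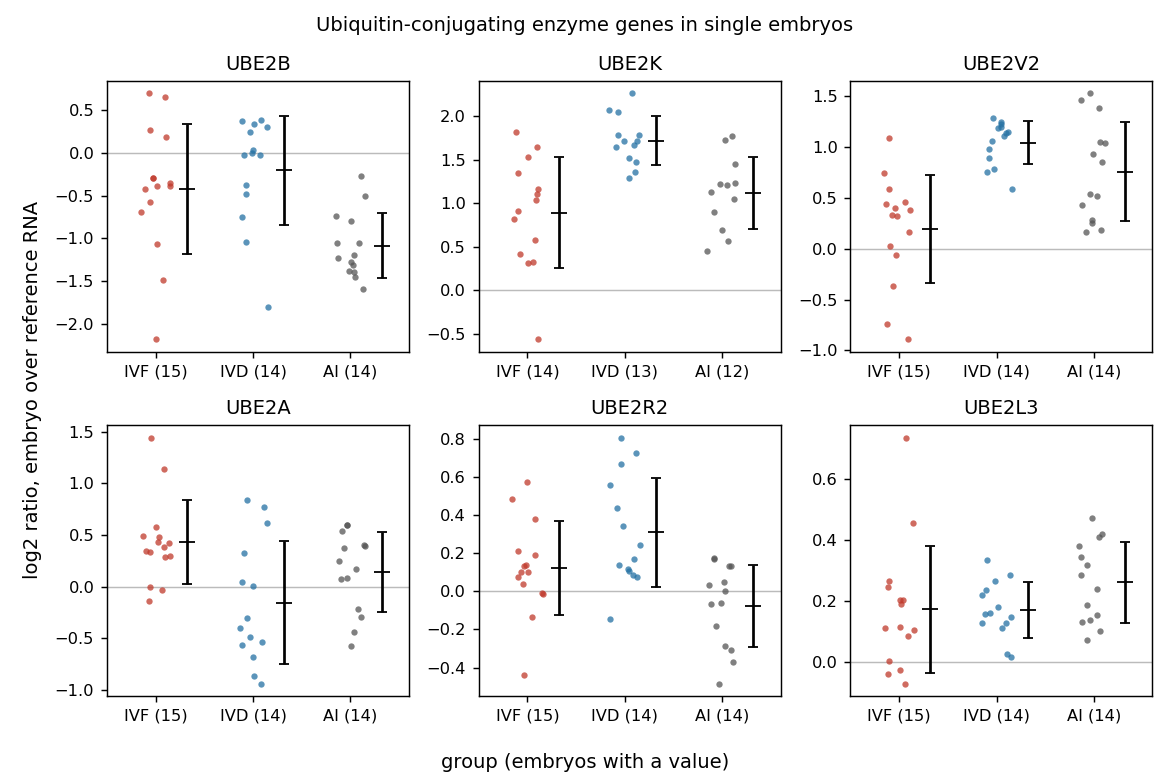
Log2 ratio of embryo over reference RNA (y axis) for 6 ubiquitin-conjugating enzyme genes, each point 1 embryo of the IVF, IVD or AI group, with the group mean and SD beside the points. AI lies lowest for UBE2B, IVF lies lowest for UBE2V2, IVD lies highest for UBE2K, and UBE2L3, which was called in no comparison, spans a narrow range.

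UBE2K, which builds degradative ubiquitin chains, ranged from -0.56 to 1.82 (median 0.98) in 14 IVF embryos, from 1.29 to 2.26 (median 1.71) in 13 IVD embryos and from 0.45 to 1.77 (median 1.17) in 12 AI embryos. In IVF 10 of 14 embryos lay below the lowest IVD embryo, and 5 of 13 IVD embryos lay above the highest AI embryo. IVF was lower than IVD by -0.83 ± 0.18 (adjusted p = 0.000202), and IVD was higher than AI by 0.60 ± 0.19 (adjusted p = 0.00801). UBE2E3 averaged 0.05 ± 0.37 in IVF, 0.39 ± 0.23 in IVD and -0.01 ± 0.35 in AI, and was higher in IVD than in AI by 0.40 ± 0.12 (adjusted p = 0.0071) and lower in IVF than in IVD by -0.35 ± 0.12 (adjusted p = 0.0158). These calls of UBE2E3 were lost in 1 and 3 of 12 other settings, both of them on the arrays with the embryo in Cy3 (0.26 and -0.11). UBE2F, which carries the ubiquitin-like protein NEDD8, averaged 0.59 ± 0.45 in IVF, 1.04 ± 0.37 in IVD and 0.89 ± 0.43 in AI, and was lower in IVF than in IVD by -0.45 ± 0.15 (adjusted p = 0.0149), a call lost in 4 of 12 other settings. UBE2J2, an E2 enzyme anchored in the endoplasmic reticulum membrane, averaged 0.29 ± 0.59 in 12 IVF embryos, -0.23 ± 0.42 in 14 IVD embryos and 0.28 ± 0.57 in 12 AI embryos. It was lower in IVD than in AI by -0.51 ± 0.20 (adjusted p = 0.0368) and higher in IVF than in IVD by 0.52 ± 0.20 (adjusted p = 0.0328), calls that were lost in 5 and 6 of 11 other settings, among them the fit without IVF embryos 1, 7 and 11 for the second (0.37). Both calls of UBE2K were lost with the dye-bias clusters as a block (-0.56 for IVF minus IVD and 0.34 for IVD minus AI).

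UBE2C, the E2 enzyme of the anaphase-promoting complex, averaged 0.23 ± 0.32 in 12 IVF embryos, 0.01 ± 0.24 in 11 IVD embryos and -0.16 ± 0.23 in 9 AI embryos, and was higher in IVF than in AI by 0.39 ± 0.13 (adjusted p = 0.0158). UBE2D2, a broadly used E2 enzyme, was higher in IVF than in AI by 0.34 ± 0.12 (adjusted p = 0.0186), and UBE2H was lower by -0.31 ± 0.12 (adjusted p = 0.0355). The 2 clones of UBE2H gave -0.45 and -0.14 for IVF minus AI, so that its difference came mostly from 1 clone. UBE2D2 differed by 0.56 on the arrays with the embryo in Cy3 (adjusted p = 0.00140) and by 0.10 on those with the embryo in Cy5 (adjusted p = 0.547), and the calls of UBE2C and UBE2H were lost with the embryo in Cy5 as well (0.22 and -0.27). Without IVF embryos 1, 7 and 11 the calls of all 3 were lost, at differences of 0.29 for UBE2C, 0.24 for UBE2D2 and -0.26 for UBE2H, and each call was lost with the values as given too (0.24, 0.31 and -0.30). UBE2R2, a partner of cullin-RING ligases, was higher in IVD than in AI by 0.38 ± 0.10 (adjusted p = 0.0017), but 1 of its 2 clones gave 0.77 and the other a value near 0. The clones gave -0.40 and 0.80 for IVF minus AI and -0.40 and 0.02 for IVF minus IVD, so that its call rests on 1 clone. UBE2G2, an E2 enzyme of protein disposal from the endoplasmic reticulum, UBE2L3, UBE2N, UBE2T, an E2 enzyme of the Fanconi anaemia pathway, and UBE2W, whose clones gave -0.0041 and 0.18 in IVF minus AI, were called in no comparison. UBE2L3 averaged 0.17 ± 0.21 in IVF, 0.17 ± 0.09 in IVD and 0.26 ± 0.13 in AI, but its clones gave -0.21 and 0.07 for IVF minus AI, -0.39 and 0.25 for IVD minus AI, and -0.45 and 0.46 for IVF minus IVD. Its average across clones therefore hides opposite values.

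The 20S, 19S and E2 genes can be compared within each embryo by the median log2 ratio over each list. For the 10 constitutive 20S genes this median averaged -0.12 ± 0.12 in 15 IVF embryos, 0.16 ± 0.17 in 14 IVD embryos and 0.17 ± 0.16 in 14 AI embryos (mean ± SD). The constitutive genes were set apart after the values were seen. Over all 13 20S genes, immune genes included, the median averaged -0.22 ± 0.13 in IVF, -0.05 ± 0.17 in IVD and 0.04 ± 0.16 in AI. For the 8 19S genes it averaged 0.01 ± 0.15 in IVF, 0.03 ± 0.13 in IVD and -0.07 ± 0.08 in AI, and for the 16 E2 genes 0.15 ± 0.15 in IVF, 0.18 ± 0.11 in IVD and 0.11 ± 0.17 in AI. The constitutive 20S median minus the 19S median was -0.13 ± 0.18 in IVF, 0.13 ± 0.12 in IVD and 0.24 ± 0.18 in AI, and minus the E2 median it was -0.28 ± 0.23 in IVF, -0.02 ± 0.13 in IVD and 0.06 ± 0.20 in AI. All of these overlapped between groups, and they are given as descriptions with no test. In the plot of list medians the IVF embryos lie lowest on average for the constitutive 20S genes, and the groups cover much the same range for the E2 genes.

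**Figure D5:**
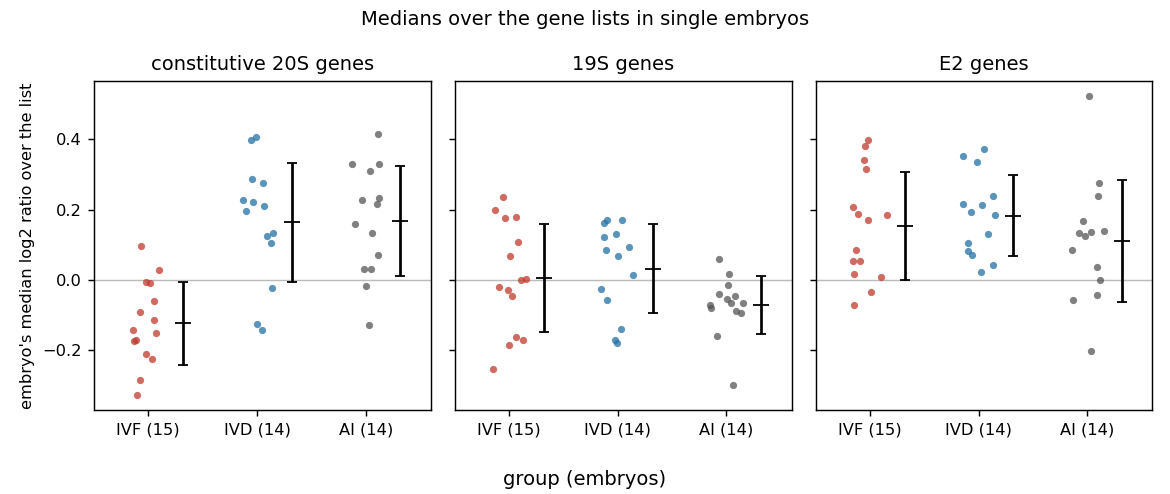
Each embryo's median log2 ratio (y axis) over the constitutive 20S, 19S and E2 genes, each point 1 embryo of the IVF, IVD or AI group, with the group mean and SD beside the points. For the constitutive 20S genes the IVF embryos range from -0.33 to 0.10 and the AI embryos from -0.13 to 0.42.

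The spread between embryos differed by group and gene class. The median SD over the constitutive 20S genes was 0.347 in IVF, 0.272 in IVD and 0.258 in AI, and over all features it was 0.423 in IVF, 0.326 in IVD and 0.399 in AI. For the 19S genes it was 0.352 in IVF, 0.272 in IVD and 0.303 in AI, and for the E2 genes 0.400 in IVF, 0.285 in IVD and 0.385 in AI. Most member values average several rows, while 2845 of the 6278 features are single rows. The part of this averaging in the SDs was not tested. Across the 42 members 10 were called in no comparison, 11 in 1, 20 in 2 and 1 in all 3. The same count was not made over all features. Of these, 37.7% were called in IVF minus AI, 46.5% in IVD minus AI and 47.6% in IVF minus IVD. The counts therefore cannot be read as a trait of the members.

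The 6 members that were not tested lacked values mainly outside IVD. UBE2L6, the interferon-inducible E2 enzyme of the ubiquitin-like protein ISG15, had values in 14 IVD embryos, in 0 IVF embryos and in at most 3 AI embryos per row. PSMC4, a 19S ATPase, had values in 13 or 14 IVD embryos, 1 IVF embryo and 1 to 3 AI embryos. UBE2S, which extends chains for the anaphase-promoting complex, had values in 14 IVD, 2 to 5 IVF and 10 AI embryos, and UBE2D4 in 14 IVD, 6 to 8 IVF and 5 to 9 AI embryos. UBE2Q2 had values in 1 to 3 IVD embryos and no others, and the assembly chaperone gene PSMG4 in none. IVD arrays had fewer spots without a value over the whole array as well, the rule for leaving a spot empty is not given, and an empty spot is no measure of a low level.

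Around the proteasome, the other genes of the pathway were read from lists chosen with earlier results known, and their counts stand beside the called shares of all features, 37.7% in IVF minus AI, 46.5% in IVD minus AI and 47.6% in IVF minus IVD. Of 7 measured proteasome-associated genes without a PSM symbol, 2 were higher and 0 lower in IVF than in AI: AKIRIN2, which brings proteasomes into the nucleus in human cells (0.63 ± 0.16, adjusted p = 0.00242), and ADRM1, a ubiquitin receptor of the 19S regulator (0.43 ± 0.08, adjusted p = 7.62e-05). In IVD against AI 2 were higher, UBLCP1, a phosphatase of the proteasome (0.81, adjusted p = 8.52e-05), and AKIRIN2 (0.51, adjusted p = 0.0109). In IVF against IVD, UBLCP1 was lower (-0.66, adjusted p = 0.000852) and ADRM1 higher (0.44, adjusted p = 2.09e-05). Of the 2 measured ubiquitin-like protein genes, UFM1 was lower in IVF than in AI (-0.62, adjusted p = 0.0118) and than in IVD (-0.63, adjusted p = 0.00805).

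The E1 gene UBA1, which starts most ubiquitin transfer, averaged 0.42 ± 0.60 in IVF, -1.08 ± 0.66 in IVD and -0.02 ± 0.55 in AI (mean ± SD). It was lower in IVD than in AI (-1.06 ± 0.22, adjusted p = 0.000145) and higher in IVF than in IVD (1.50 ± 0.22, adjusted p = 2.41e-07). SAE1, of the SUMO-activating enzyme, did likewise (-0.50 in IVD minus AI, 0.77 in IVF minus IVD), which makes 2 of 4 measured E1 genes in each of these comparisons and 0 in IVF against AI. Of 27 E3 ligase genes 6 were higher and 3 lower in IVF minus AI, led by SIAH2 (0.88) and TRIP12 (0.77), beside 37.7% of all features called. In IVD minus AI 8 were higher and 8 lower, led by MDM2 (1.64) and TRIM28 (-1.44), and in IVF minus IVD 11 were higher and 6 lower, led by TRIM28 (1.52) and MDM2 (-1.45).

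Of 17 deubiquitinase genes 4 were higher and 3 lower in IVF minus AI, beside 37.7% of all features called. They were led by JOSD1 (1.21) and USP14 (0.88), which trims ubiquitin chains on the 19S regulator. In IVD minus AI 8 were higher and 2 lower, led by USP15 (1.55) and USP47 (1.18), and in IVF minus IVD 3 were higher and 6 lower, led by JOSD1 (1.15) and USP15 (-1.10). Of 8 shuttle and p97 genes, which pull substrates free and carry them to the proteasome, 1 was higher (BAG6, 0.29) and 1 lower (UBXN1, -0.40) in IVF minus AI. In IVD minus AI 1 was higher and 4 lower, led by BAG6 (-0.85) and VCP (-0.61), and in IVF minus IVD 3 were higher and 0 lower, led by BAG6 (1.14) and VCP (0.84). NFE2L1 drives proteasome genes when the proteasome is inhibited. NFE2L1 itself was called in no comparison, at 0.16 in IVF minus AI, 0.13 in IVD minus AI and 0.03 in IVF minus IVD. Of the 3 genes measured from its list, which include NFE2L1, the other 2 were called. NFE2L2, a related factor, was higher in IVF than in AI (0.54) and than in IVD (0.60), and NGLY1, the enzyme that activates NFE2L1, was higher in IVD than in AI (0.54) and lower in IVF than in IVD (-0.48).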

How the data were processed

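The values are log2 ratios that the authors deposited in 1 table of 16416 rows and 86 arrays (43 embryos). The image analysis, background correction, normalization and rule for empty spots are not given in the sources used, and the number of arrays limits the precision. Of all cells, 20.1% had no value or sat at a common ceiling and were left out. Array medians ran from -2.22 to 1.06, so the median of the 5558 rows with a value throughout was subtracted from each array. The 2 arrays of each embryo correlated negatively in 43 of 43 embryos (r from -0.912 to -0.59), so the Cy3 array of each embryo was multiplied by -1, and the pair was averaged to 1 replicate. Rows with both arrays in at least 7 embryos of every group (10757 rows) were kept and averaged by single gene symbol, which gave 6278 features, 3433 of them named. All 48 member symbols had their gene identifier in the RefSeq table of assembly ARS-UCD2.0, and no sequence or coordinate is given because the clones were not mapped.

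Group means were fitted by limma 3.58.1 (R 4.3.3) in 1 model over all embryos (empirical Bayes moderation, two-sided, Benjamini-Hochberg over all features, threshold 0.05). The same fit was also run on simulated data with the spread of these data, and its outcome is not given here. Errors beside differences are standard errors. The p-values measure the spread between embryos, whose independence is not stated. The members and lists were chosen with earlier results of these data known. In each comparison and role, the up to 3 called genes with the largest difference in each direction are named with full values, as are the 2 largest called genes of each pathway list; the remaining members are accounted for by role. UBE2R2, PSME3IP1 and further members outside this rule are named because every member is accounted for.

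The 12 other settings were the values as given, centring on all rows, quantile normalization, rows in every embryo, rows in at least 2 embryos per group, each dye orientation alone, the embryo number as a block, 3 clusters of embryos by dye bias as a block, the 4 IVD embryos numbered 12 as 1 sample, rows not averaged, and the fit without IVF embryos 1, 7 and 11. The last was chosen after seeing the data, as were the counts of constitutive and immune core genes. Figures were drawn with matplotlib 3.10.9.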

Additional observations from a re-analysis of the deposited data

How the results depend on the processing

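Of 502 values of the 43 named differences under 12 other settings, 427 kept direction and call, 74 lost the call and 1 turned, and 18 named differences kept their call in each setting in which they could be fitted; the cause of the changes was not tested unless stated. These 18 include PSMB5, PSMA6, PSMB6, PSMC2, PSMD1, PSMD13, PSME4 and PSMG1 in IVF minus AI, PSMA4, PSMD1, PSME4, PSMG1 and UBE2B in IVD minus AI, and PSMA4, PSMA6, PSMB10, PSMC2 and UBE2V2 in IVF minus IVD. Calls were lost most often with the dye-bias clusters as a block (15 of 43), with the values as given (14) and with the replicate block (12). PSMD8 turned to -0.13 in IVF minus AI on the Cy3 arrays. PSME1 in IVD minus AI and UBE2H in IVF minus AI each lost their call in 7 of 12 settings, UBE2J2 in IVF minus IVD in 6 of 11, and PSMB9 and UBE2J2 in IVD minus AI in 5 of 11.

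With the values as given, calls of E2 genes were 1 in IVF minus AI (5 with centred arrays) and 8 in IVD minus AI (5), constitutive 20S genes lower in IVF than in AI were 4 (7), and immune genes lower in IVD than in AI were 1 (3). The called share of all features moved as well. It was 21.1% in IVF minus AI (37.7% with centred arrays) and 44.9% in IVD minus AI (46.5%). List medians moved with that setting to 0.14 (20S), 0.38 (19S) and 0.43 (E2) in IVD minus AI, and to -0.41 (20S), -0.36 (19S) and -0.30 (E2) in IVF minus IVD. The medians over all features moved likewise, since no array was centred. Among rows in every embryo, E2 calls in IVF minus AI were 3 of 12 measured, proteasome calls in IVF minus IVD were 7 (11), and immune calls were 1 in IVD minus AI and 1 in IVF minus IVD, where only 1 immune gene was left. Of all features in that setting, 44.5% were called in IVF minus AI, 50.1% in IVD minus AI and 53.2% in IVF minus IVD. On the Cy3 arrays the 19S median was -0.081 in IVF minus AI and -0.33 in IVF minus IVD, E2 calls in IVD minus AI were 3, and immune calls were 1 in IVD minus AI and 1 in IVF minus IVD. On these arrays 46.0% of all features were called in IVD minus AI and 51.2% in IVF minus IVD. On the Cy5 arrays E2 calls were 2 in IVF minus AI and 9 in IVD minus AI, beside 34.9% and 43.6% of all features.

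With the dye-bias block, E2 calls were 3 in IVF minus AI and 1 in IVF minus IVD (6), proteasome calls in IVF minus IVD were 5, and constitutive 20S genes lower in IVF than in IVD were 2 (5). Of all features, 34.1% were called in IVF minus AI and 29.2% in IVF minus IVD with this block. In that fit only 2 IVF embryos share a cluster with IVD. The comparison therefore also draws on AI embryos, of which 5 lie in the IVD cluster and 9 in the cluster of 12 IVF embryos. With the replicate block, E2 calls in IVF minus AI were 1 and immune calls in IVD minus AI were 1. With that block 25.6% of all features were called in IVF minus AI and 32.7% in IVD minus AI. The labels do not say whether the embryo numbers pair samples. Of 21 group pairs of same-numbered embryos, 3 had deviations correlated above 0.1 (r from -0.187 to 0.213). Embryos of different numbers were not compared in this way, so these values cannot settle whether samples are paired. Rows not averaged gave a 19S median of 0.23 in IVD minus AI. Without IVF embryos 1, 7 and 11, E2 calls in IVF minus AI were 2, beside 36.7% of all features.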
